A study of Mus musculus with 192 samples.

Results

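Akt1 and Akt2 are serine/threonine kinases that act in the middle of the insulin pathway. Insulin binding to its receptor recruits the insulin receptor substrates (Irs1, Irs2) and PI3 kinase (catalytic subunit Pik3ca, regulatory subunit Pik3r1), whose lipid product brings Akt to the plasma membrane, where it is switched on by phosphorylation. Active Akt phosphorylates the glycogen synthase kinases Gsk3a and Gsk3b, the transcription factor Foxo1 and other targets, and it feeds into mTor. Akt2 is best known for insulin-stimulated glucose uptake in muscle and fat, Akt1 for growth and survival, and both are expressed in brain. The amounts measured here are of mRNA, and say nothing about phosphorylation.

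The 2 genes were chosen by name and make up 2 of the 43 target genes on the panel. RNA from the brains of male L44 mice was counted on the NanoString nCounter platform, which tags each mRNA molecule with a barcoded probe. L44 mice, on the FVB/n background, carry a transgene for tri-prolyl human amylin, a variant that does not aggregate, under the rat insulin 2 promoter. Hemizygous (HEM), homozygous (HOM) and nontransgenic (NON) mice were compared at T1 (before diabetes, labelled ages of 99 to 101 days), T2 (diabetes onset, or matched age for NON, 90 to 286 days) and T3 (after diabetes, 400 to 408 days). At T3, 12 of 24 NON pools, 13 of 23 HEM pools and 18 of 22 HOM pools were labelled as previously diabetic, so that the older controls were not free of raised glucose. Brains were cut into the hindbrain with the cerebellum, the left cortex, the right cortex and the remainder, called midbrain, which holds the forebrain and hypothalamus. The 192 pools (43 of 1 mouse and 149 of 2 mice) comprised 46 from the hindbrain, 49 from the midbrain, 48 from the left cortex and 49 from the right cortex. There were 20, 28 and 24 NON pools at T1, T2 and T3, 19, 20 and 23 HEM pools, and 16, 20 and 22 HOM pools. Collection was in the morning (AM) or afternoon (PM), and 12 HEM pools of T1 had no stated collection time. A pool number such as 2/7 names the mice whose RNA was mixed, and the same number at the same time point and genotype denotes the same mice in every region, except that the ages labelled for HOM pool 1/5 of T3 differ between midbrain (403 and 401 days) and left cortex (403 and 405 days). Tissue blocks hold many cell types, so that fewer cells of a type and less RNA per cell cannot be told apart.

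A normalised count is a gene's raw count divided by the geometric mean of 3 reference genes in that pool and multiplied by the average of this mean over all pools, 5605. The Akt1 to Akt2 ratio is the raw Akt1 count over the raw Akt2 count and needs no reference gene. Probes differ in efficiency, so that the ratio shows how the balance shifts between samples and not which mRNA is more abundant. The total target count was between 3489 and 525264 per pool with a median of 234937. Both genes were counted above the background level, set at 2 SD over the mean of a pool's negative control probes, in 192 of 192 pools. The Akt1 count was 18.7 to 2154 times that level and the Akt2 count 1.43 to 275 times. Akt2 came closest to background in hindbrain HOM AM pool 9 at T3, with an Akt2 count of 13, an Akt1 count of 170 and a reference mean of 131. Hindbrain NON AM pool 7 (reference mean 267) and NON PM pool 5/6 (511) of T3 were also low. The differences of Akt1, Akt2 and their ratio between regions or time points that rest on these 3 pools are given with and without them. Exceptions are Akt1 in the HOM hindbrain, given as a range, and the tests of whether regions changed differently. Values of other genes in the hindbrain are given only with these pools. The midbrain label could be checked, because the summed median normalised count of the hypothalamic peptides Mch, Hcrt and Agrp was 23948 there against 147 to 200 elsewhere, most of it Mch. The panel holds no defining markers of hindbrain or cortex. The islet hormones Ins1, Ins2 and Iapp, of which brain is also known to express low levels, summed to median normalised counts of 43.7 to 81.4, with single hindbrain pools at raw counts of up to 274 for Ins1 and 153 for Iapp. Each was above background in only 3 to 7 of the 48 left cortex or 49 right cortex pools, in 21 to 31 of 46 hindbrain pools and in 21 to 39 of 49 midbrain pools.

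Akt2 mRNA was higher in the cortices than in the midbrain or hindbrain, whereas Akt1 mRNA differed little between the regions on the scale of the reference genes. Over all pools the mean normalised Akt2 count was 1218 ± 308 (SD, n = 46) for hindbrain, 1276 ± 121 (n = 49) for midbrain, 1876 ± 219 (n = 48) for left cortex and 1844 ± 256 (n = 49) for right cortex. The mean normalised Akt1 count was 9439 ± 1256 for hindbrain, 10303 ± 1138 for midbrain, 9775 ± 1175 for left cortex and 9482 ± 1755 for right cortex, over the same pools. These spreads take in 3 time points and 3 genotypes, and the regions were compared in NON mice with the mice as a block.

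In NON brains Akt2 was 1.52-fold higher in the left cortex than in the midbrain of the same mice, a log2 difference of 0.60 (95% interval 0.52 to 0.69, 16 pools in each, adjusted p = 2.26e-11 by edgeR's quasi-likelihood test). Against the hindbrain it was 1.64-fold higher, with a log2 difference of 0.72 (interval 0.54 to 0.96, 14 pools in each, adjusted p = 6.95e-07), or 0.61 without the low hindbrain pools. Over the alternative settings the log2 difference from the hindbrain ran from 0.37 to 1.46 and always passed. The same direction was called for 37.2% of the 43 target genes in the first comparison and 53.5% in the second. Its rank from the highest difference was 5 and 8 of 43. The midbrain and hindbrain did not differ detectably in Akt2, with a log2 difference of 0.15 (interval -0.04 to 0.40, adjusted p = 0.150, 0.04 without the low pools, but called at -0.23 with TMM and at 0.28 without the mice as a block), nor did the right and left cortex, with a difference of -0.05 (interval -0.12 to 0.01, adjusted p = 0.349).

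For Akt1 the differences between regions were smaller, and their signs depended on the scaling. Akt1 was higher in the midbrain than in the hindbrain by 0.18 on the log2 scale (interval 0.04 to 0.32, 15 pools in each, adjusted p = 0.0163, and still called, at 0.11, without the low pools), whereas with TMM scaling over the target genes the difference was -0.20 and also passed the test. A higher level in the midbrain was called for 72.1% of the target genes, whose median difference of 0.35 exceeded that of Akt1. Akt1 was lower in the right cortex than in the left by 0.15 on the log2 scale, at a fold of 0.902 (interval -0.21 to -0.09, 17 pools in each, adjusted p = 0.000649), but with the positive control probes as the scale the difference was 0.19. It was 1 of the 4 genes lower in the right cortex, 9.30% of the 43, and had the lowest difference of all 43. Neither the left cortex against the midbrain (-0.09, interval -0.20 to 0.03, adjusted p = 0.139) nor the left cortex against the hindbrain (0.04, interval -0.12 to 0.21, adjusted p = 0.656, and -0.06 without the low pools) passed the test for Akt1. Over the alternative settings these differences ran from -0.12 to 0.18 and from -0.30 to 0.78, and each was called under some of the settings.

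The Akt1 to Akt2 ratio was therefore lower in the cortices, and in this measure no scaling enters. Its median over all pools was 7.62 in the hindbrain and 8.02 in the midbrain, against 5.23 for left cortex and 4.77 for right cortex. In NON mice the left cortex ratio was 0.620 times the midbrain ratio and lower in 16 of 16 pairs of the same mice. It was 0.611 times the hindbrain ratio and lower in 14 of 14 pairs, with a log2 difference of -0.71 that was -0.67 without the low pools. Both p-values, 3.05e-05 and 0.000122 from a two-sided permutation test by sign flips, are the smallest those numbers of pairs can give, and adjusted over 4 comparisons they were 0.000122 and 0.000244. The midbrain and hindbrain ratios differed by -0.01 on the log2 scale (p = 0.948, permutation test), or 0.07 without the low pools. The right cortex ratio was lower than the left in 13 of 17 pairs, with a log2 difference of -0.09 and p = 0.0404 by the permutation test, which became 0.0538 after adjustment. It passed when the mouse pools 4/5 of T1 or 3/4, 5/6 or 7 of T3 were left out singly, with differences of -0.12 to -0.10 and adjusted p-values down to 0.00618. Under the other alternative settings the difference ran from -0.09 to -0.03, with adjusted p-values of up to 0.418 by the permutation test.

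**Figure D1:**
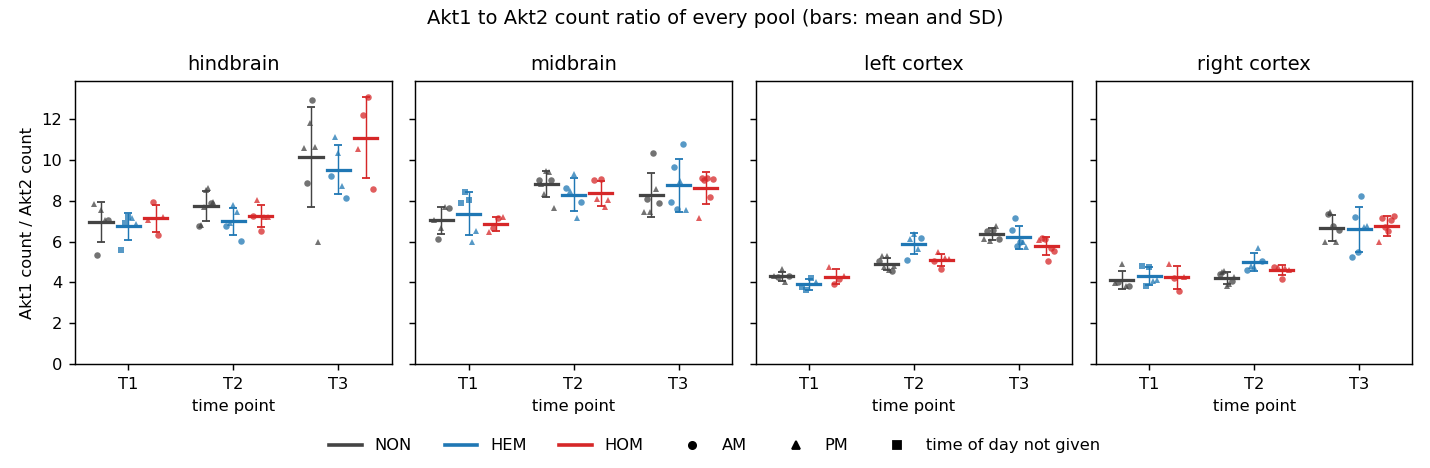
Akt1 count divided by Akt2 count (y axis, no unit, from 0) in every pool, by time point (x axis), genotype (colour) and collection time (symbol) in the 4 regions, with bars at the mean and SD. The cortical pools of T1 sit between 3.57 and 4.91, under all hindbrain and midbrain pools of T1, and the T3 cortical pools of NON, HEM and HOM mice sit higher than their T1 pools.

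In the cortices the balance of the 2 kinases was further towards Akt1 at T3 than at T1, also in NON mice, which carry no transgene. In the left cortex of NON mice the 5 pools of T1 had ratios of 4.26, 4.30, 4.33, 4.64 and 4.02, and the 6 pools of T3 ran from 6.04 to 6.76 with a median of 6.34. In the right cortex the T1 ratios were 4.02, 3.83, 3.96, 4.88 and 3.82, and those of T3 ran from 5.97 to 7.44 with a median of 6.67. In both cortices every T3 pool was above every T1 pool. The ratio rose 1.48-fold on the left and 1.63-fold on the right, log2 differences of 0.56 and 0.70. Labels were permuted within AM and within PM, and for both cortices the exact permutation test gave p = 0.00500, the smallest it can give, and an adjusted p of 0.0370 over 20 comparisons.

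HOM mice, which carry the transgene on both chromosomes, had the same direction of change. The left cortex ratio of HOM mice was 3.93, 4.15, 4.76 and 4.31 in the 4 pools of T1 and 5.04 to 6.19 (median 5.87) in the 6 pools of T3. The right cortex ratio was 4.23, 3.57, 4.91 and 4.24 at T1 and 5.95 to 7.25 (median 6.90) at T3. Again no T3 pool overlapped with T1. The rise was 1.39-fold on the left and 1.62-fold on the right (exact permutation test, p = 0.0159 and adjusted p = 0.0370 for each). HOM mice had only 1 PM pool per region at T3, and leaving it out raised the adjusted p to 0.0769 in either cortex, while leaving out T1 AM pool 3/4 or 6/7 raised it to 0.0816, with log2 differences of 0.44 to 0.50 on the left and 0.57 to 0.84 on the right.

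In HEM mice T3 was compared with T2, since most HEM pools of T1 have no collection time. The right cortex ratio was 4.63, 5.04, 4.82, 4.74 and 5.70 at T2 and 5.24 to 8.24 (median 6.72) at T3, a 1.33-fold rise in which the groups overlapped (exact permutation test, p = 0.0200, adjusted p = 0.0400). In the left cortex the HEM ratio was 5.10, 6.19, 6.11, 6.38 and 5.64 at T2 and 5.74 to 7.17 (median 5.97) at T3. This left cortex difference of 0.07 on the log2 scale did not pass the exact permutation test (p = 0.440). The right cortex call was lost without T3 AM pool 2/3, T3 PM pool 9 or 8/10, or T2 AM pool 4/6 or 9 or PM pool 5/10 or 7/12, each left out alone, with adjusted p-values of 0.0556 to 0.0769 and differences of 0.38 to 0.43.

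In the midbrain and left cortex the ratio was already higher at T2. The midbrain ratio of NON mice was 6.14, 7.63, 7.05, 6.64 and 7.71 at T1 and 7.63 to 9.47 (median 9.01) in the 7 pools of T2, a rise of 0.33 on the log2 scale (exact permutation test, p = 0.00893, adjusted p = 0.0370). At T3 it was 7.44 to 10.3 (median 7.98), a log2 difference of 0.23 from T1 that did not pass (exact permutation test, p = 0.05, adjusted p = 0.0769) unless T1 PM pool 6 was left out (0.27, adjusted p = 0.0364). The left cortex of NON mice rose 1.14-fold from T1 to T2 (exact permutation test, adjusted p = 0.0370). HOM mice rose 1.23-fold in the midbrain, without overlap between the groups, and 1.18-fold in the left cortex (exact permutation test, adjusted p = 0.0370 each). Leaving out any 1 of the 9 HOM pools in either region raised the adjusted p to between 0.0556 and 0.0816. HOM midbrain ratios at T3 differed from T1 by 0.27 on the log2 scale (exact permutation test, adjusted p = 0.0556, or 0.0433 without T1 PM pool 8/9). The right cortex did not differ detectably between T1 and T2 in NON (0.04, p = 0.536) or HOM mice (0.11, p = 0.267, exact permutation tests). T2 and T3 were set against the same T1 pools, and so these comparisons are not independent of each other.

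In the hindbrain the mean ratio at T3 was the highest of the 4 regions in each genotype. In NON mice it was 5.33, 7.07, 7.83, 7.55 and 7.05 at T1 and 5.97 to 12.9 (median 10.6) at T3, and the groups overlapped through PM pool 12. The log2 difference of 0.51 did not pass (exact permutation test, p = 0.0571, adjusted p = 0.0816), and without PM pool 12 it was 0.66 with an adjusted p of 0.0333. Without the low pools AM 7 and PM 5/6 it was 0.32 (adjusted p = 0.250). HOM ratios were 7.95, 6.34, 7.08 and 7.19 at T1 and 8.56, 12.2, 13.1 and 10.5 at T3, with no overlap. Their difference of 0.62 had p = 0.0333, the smallest the exact permutation test can give there, and an adjusted p of 0.0556, and without the low pool AM 9 it was 0.54. HEM ratios rose 1.36-fold, from 6.77, 6.03, 6.91, 7.78 and 7.45 at T2 to 8.15, 9.23, 8.72, 11.1 and 10.3 at T3, again without overlap (exact permutation test, p = 0.0167, adjusted p = 0.0370). That call was lost, at an adjusted p of 0.0556, without T2 PM pool 5/10, 7/12 or 8/14.

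Of the 20 comparisons of time points, 10 passed the test and each of these had a higher ratio at the later time. The smallest p that any of these exact permutation tests can give, 0.00298, is too large for 1 test to pass by itself over 20. Each call therefore rests on other tests of the 20 also having low p-values. Regions largely share the same mice and T2 and T3 share T1 pools, so that the 10 are not independent results. The other 10 comparisons also had differences above 0, between 0.02 and 0.62 on the log2 scale.

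On the scale of the reference genes Akt1 was called higher at T3 in each of the 6 cortical comparisons, and Akt2 was called lower in 3 of them, both NON cortices and the HOM left cortex. The normalised Akt1 count of the NON left cortex was 9666, 9027, 8890, 8679 and 9134 at T1 and 11315 to 11978 (median 11501) at T3, so that the groups were far apart. Akt1 rose 1.27-fold there (log2 difference 0.35, interval 0.26 to 0.43, adjusted p = 4.51e-09 by edgeR), but with the positive control probes as the scale the value was -1.25. In the NON right cortex the count was 8982, 8099, 8385, 7775 and 8169 at T1 and 10006 to 11396 (median 10850) at T3. Akt1 rose 1.29-fold there (0.37, interval 0.23 to 0.51, adjusted p = 1.71e-05), against -1.40 on the positive control scale. A rise was an exception among the target genes, since only 14.0% were called higher on the left and 11.6% on the right, and the median of all 43 was -0.22 and -0.33. With TMM scaling, which sets the median near 0, the Akt1 differences were 0.63 and 0.74. The positive control probes are added in fixed amount and do not correct for the amount of RNA in a pool. The mean total target count of NON pools was 353353 at T1 and 119462 at T3 on the left, and 390141 and 138456 on the right. On the positive control scale the panel median ran from -2.13 to 0.24 over the 20 comparisons of time points.

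In HOM cortices Akt1 rose by 0.20 on the log2 scale on the left (interval 0.10 to 0.30, adjusted p = 0.000715) and by 0.48 on the right (interval 0.31 to 0.65, adjusted p = 4.75e-06), where 4.65% of the target genes were called higher on either side, and on the positive control scale these were -0.93 and -0.70. In HEM cortices the difference between T3 and T2 was 0.15 on the left (interval 0.07 to 0.24, adjusted p = 0.00158, with 6.98% of the target genes called higher) and 0.44 on the right (interval 0.30 to 0.59, adjusted p = 1.09e-06, with 11.6% called higher), and these were -0.52 and -1.19 on the positive control scale. Thus 6 of 20 comparisons of time points called Akt1 higher, all of them in cortex at T3, where its rank was 3 to 5 from the highest of 43.

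**Figure D2:**
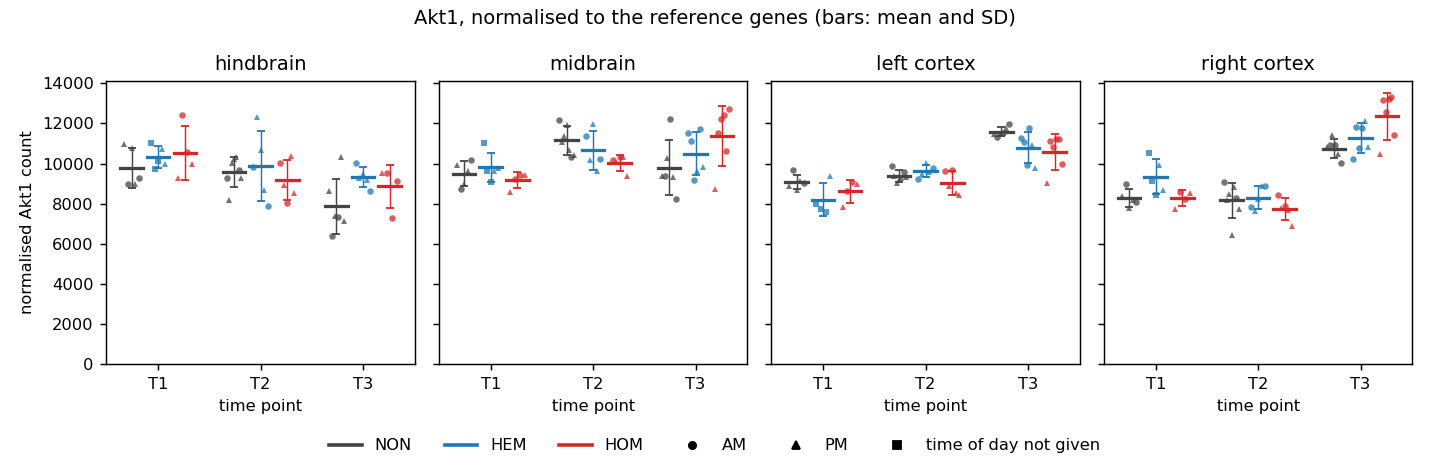
Normalised Akt1 count (y axis, from 0) in every pool, by time point, genotype and collection time in the 4 regions, with bars at the mean and SD. In the right cortex the T3 means of 10746 to 12358 lie above the T2 means of 7737 to 8298, a direction that turns when the positive control probes set the scale. That scale does not correct for the amount of RNA in a pool.

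Outside the cortex Akt1 showed no such rise. In the NON hindbrain it fell by 0.35 on the log2 scale between T1 and T3 (interval -0.57 to -0.14, adjusted p = 0.00317), alongside 58.1% of the target genes and with a median of -0.54, and with TMM the value turned to 0.09 (adjusted p = 0.528), while without the low pools it was -0.37 and on the positive control scale -2.11, both called. Its normalised counts were 8985, 9282, 10952, 10787 and 8959 at T1 and 6406 to 10305 (median 7349) at T3, and the groups overlapped through PM pool 8. Hindbrain Akt1 was not called in HOM mice between T1 and T3 or in HEM mice between T2 and T3. Its values under the alternative settings ran from -0.80 to 0.20 and from -0.16 to 0.27, so that both signs depended on the setting. No Akt1 difference passed in the midbrain, where NON mice had 0.04 between T1 and T3 (0.24 with TMM, which passed at an adjusted p of 0.0306), HOM mice 0.15 (0.51 on the positive control scale, adjusted p = 0.0216) and HEM mice -0.05 between T2 and T3. In HOM and HEM midbrain, 18.6% and 37.2% of the target genes were called in either direction in these comparisons, and neither Akt gene was among them.

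Akt2 was called lower at T3 in 7 comparisons and higher in none of the 20. The hindbrain held the widest differences, and there alone all 3 genotypes passed. Normalised Akt2 counts of the NON hindbrain were 1687, 1313, 1399, 1429 and 1271 at T1 and 567 to 1194 (median 767) at T3, and every T3 pool was lower than every T1 pool. Akt2 fell to 0.542 times its T1 level (log2 difference -0.88, interval -1.22 to -0.62, adjusted p = 4.54e-06), while 58.1% of the target genes were called lower. Without the 3 low pools the difference was -0.76, and under the 8 alternative settings it ranged from -2.40 to -0.43 and always passed.

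HOM hindbrain Akt2 counts were 1561, 1666, 1310 and 1385 at T1 and 1064, 780, 558 and 906 at T3, again without overlap. The fall was 0.75 on the log2 scale (interval -1.17 to -0.45, adjusted p = 0.00115, with 51.2% of the target genes called lower), or 0.69 without the low pool AM 9, and it did not pass with TMM (-0.35, adjusted p = 0.159) or on the positive control scale (-1.29, adjusted p = 0.254). HEM hindbrain Akt2 fell by 0.49 between T2 and T3 (interval -0.79 to -0.18, adjusted p = 0.00754, with 46.5% called lower), with TMM by 0.18 (adjusted p = 0.333) and on the positive control scale by 0.59 (adjusted p = 0.835), neither of which passed. Its counts were 1452, 1304, 1782, 1373 and 1166 at T2 and 1058, 1084, 1054, 836 and 917 at T3, so that all 5 later pools were lower.

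The Akt2 differences in the NON cortices were near those of the whole panel. In NON mice Akt2 fell by 0.22 on the left (interval -0.36 to -0.07, adjusted p = 0.00940, 44.2% of the target genes called lower) and by 0.35 on the right (interval -0.54 to -0.15, adjusted p = 0.00137, 51.2% called lower), but with TMM the values were 0.06 and 0.02. In the HOM left cortex it fell by 0.26 (interval -0.43 to -0.08, adjusted p = 0.0113, 46.5% called lower), and the value was 0.07 with TMM. Akt2 was not called in the HOM right cortex (-0.13, adjusted p = 0.320, but -1.32 with an adjusted p of 1.50e-05 on the positive control scale) or in the HEM cortices, where it was 0.09 on the left (adjusted p = 0.301) and 0.04 on the right (adjusted p = 0.701) beside panel medians of -0.34, -0.45 and -0.28, and with TMM both HEM values were called higher (0.51 and 0.34), while on the positive control scale both were called lower (-0.56 and -1.61). The NON left cortex call was lost without T1 AM pool 2/7 (-0.19, adjusted p = 0.0551) and the HOM one without T1 PM pool 8/9 (-0.17, adjusted p = 0.118). Midbrain Akt2 of NON mice fell by 0.20 (interval -0.35 to -0.06, adjusted p = 0.0238), with 48.8% of the target genes called lower and a panel median of -0.20. That call was lost without T1 PM pool 1/3, T1 AM pool 2/7, T3 PM pool 8/9 or T3 AM pool 10 (-0.18 to -0.16, adjusted p-values of up to 0.0900), without B2m among the reference genes (-0.06) and with TMM (adjusted p = 0.998). Akt2 was itself the median gene of the panel in the NON left cortex, at rank 22 of 43, and its rank from the highest was 24 in the NON right cortex and midbrain and 17 in the HOM left cortex, while Akt1 ranked 4 or 5 in these 4 comparisons.

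**Figure D3:**
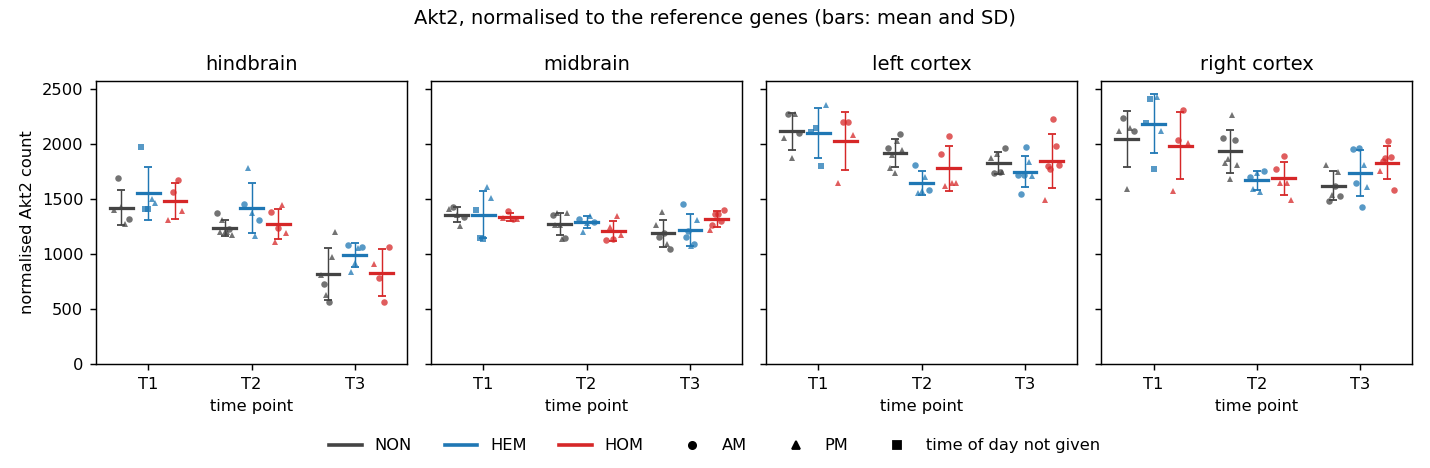
Normalised Akt2 count (y axis, from 0) in every pool, by time point, genotype and collection time in the 4 regions, with bars at the mean and SD. The cortical means are 1618 to 2179, those of the midbrain 1185 to 1355, and in the hindbrain the means drop from 1420 to 1548 at T1 to 815 to 990 at T3.

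Between T1 and T2, the step that spans diabetes onset in the HOM mice, no Akt1 or Akt2 difference passed in the 8 comparisons of NON and HOM mice, in which 0.872% of all gene tests were called in either direction. The largest were Akt1 in the NON midbrain, 0.24 (interval 0.07 to 0.40, adjusted p = 0.218), and Akt2 in the HOM right cortex, -0.21 (interval -0.41 to 0.01, adjusted p = 0.351). In the midbrain Akt1 passed in NON mice without B2m among the reference genes (0.27, adjusted p = 0.0485) and in HOM mice on the positive control scale (0.40, adjusted p = 0.0336, against 0.14).

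**Figure D4:**
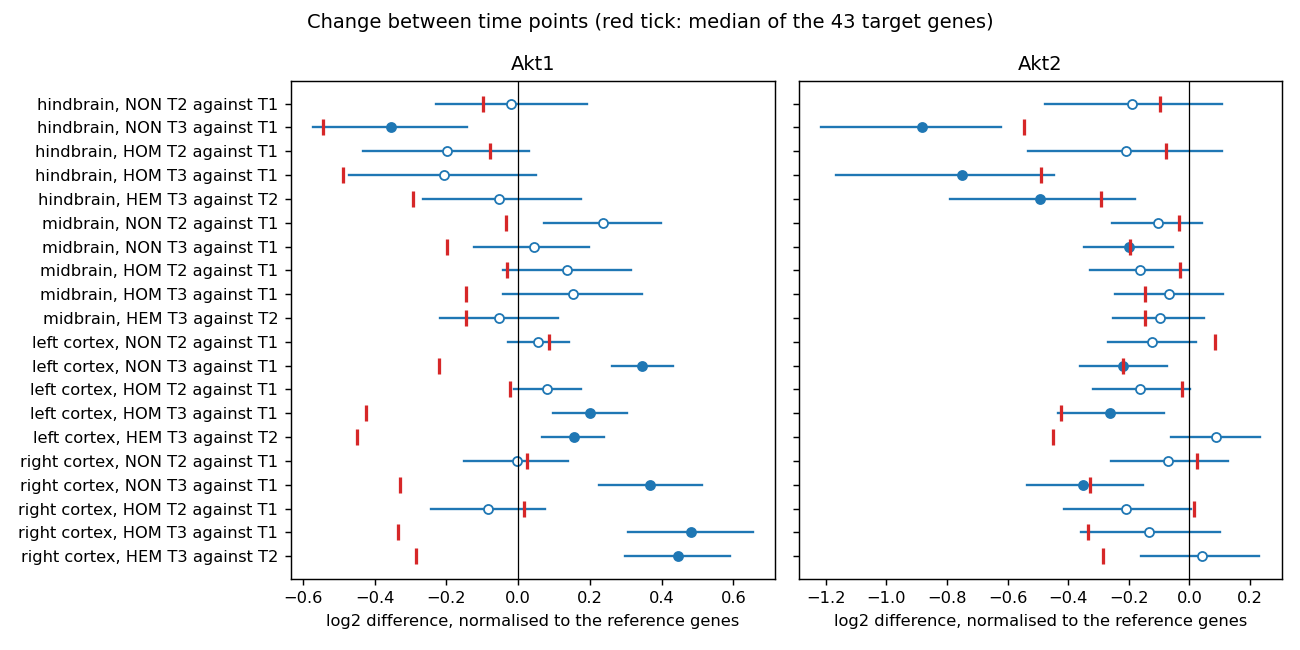
Log2 difference between time points (x axis) of Akt1 (left) and Akt2 (right) in each region and genotype (y axis), with 95% intervals, filled points for an adjusted p under the threshold and a red tick at the median of the 43 target genes. In the cortices at T3 the Akt1 points of 0.15 to 0.48 lie far right of ticks at -0.22 to -0.45, whereas the Akt2 points of NON mice lie on or beside the ticks, on the reference gene scale, and on the positive control scale the cortical Akt1 values of T3 are below 0. The positive control scale does not correct for the amount of RNA in a pool.

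The reference gene counts differed between time points as well. In NON mice the reference gene mean went from 4666 at T1 to 1862 at T3 for hindbrain, from 6793 to 2900 for left cortex and from 7609 to 3479 for right cortex, but from 6023 to 6376 for midbrain. The positive control probes, which are added in fixed amount, did not drop with it, at 550, 427 and 463 over all pools of T1 and 582, 584 and 672 over those of T3 in the hindbrain, left cortex and right cortex. In NON mice the 3 regions with lower reference means at T3 were those with the larger differences in ratio, and the part of these counts in the result was not tested. In HOM mice the reference mean went from 5674 at T1 to 2540 at T3 for hindbrain, from 7520 to 4790 for left cortex and from 8321 to 3881 for right cortex. Their ratio differences were 0.62, 0.47 and 0.69. The HOM midbrain went from 4648 to 6837, with a ratio difference of 0.27. In HEM mice the reference mean went from 7563 at T2 to 3687 at T3 for right cortex, with a ratio difference of 0.41. It went from 5620 to 3614 for left cortex and from 6218 to 4286 for midbrain, with ratio differences of 0.07 and 0.05, and from 6725 to 6162 for hindbrain, with a difference of 0.44. The HEM hindbrain of T3 had reference means of 4483 to 6851, against 4863 to 8020 at T2, with ratios of 8.15 to 11.1 at T3. Right cortex HEM AM pool 6 of T3 had 5721 and 8.24, the highest ratio of all cortical pools. In the NON hindbrain of T3, PM pool 12 had the highest reference mean, 5022, and the lowest ratio, 5.97.

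**Figure D5:**
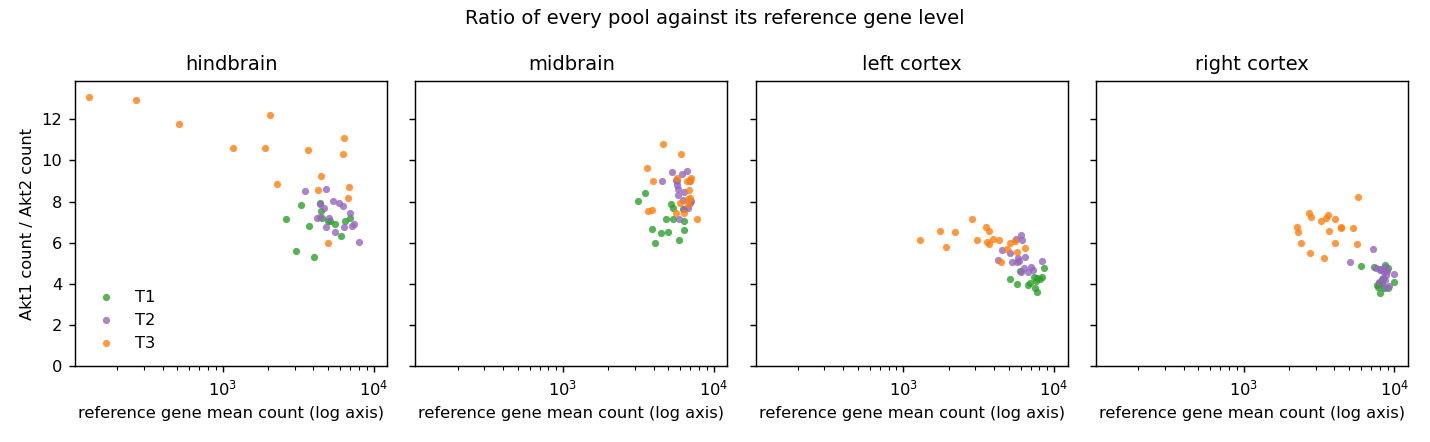
Akt1 to Akt2 ratio (y axis, from 0) of every pool against the geometric mean count of its reference genes (x axis, log scale), by time point, in the 4 regions. The T3 cortical pools combine reference means of 1290 to 6425 with ratios of 5.04 to 8.24, and the 3 hindbrain pools at reference means of 131, 267 and 511 have ratios of 13.1, 12.9 and 11.8.

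Whether the change over time differed between regions was examined in the NON mice that had both regions counted, a comparison added once the data had been seen. The ratio changed by 0.49 more in the right cortex than in the midbrain (5 mouse pools at each time point, p = 0.05) and by 0.51 less in the midbrain than in the hindbrain (3 pools at T3 and 5 at T1, p = 0.0333, exact permutation tests). None of the 18 tests passed after adjustment, with adjusted p-values of 0.150 and above. The 9 tests that involve the hindbrain have smallest reachable p-values of 0.0333 or 0.0833, so that they could hardly have passed. At T3 these 9 tests rest mostly on the low NON hindbrain pools, and for either cortex on those alone. They are given only with the low pools.

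HEM and HOM mice were compared with NON mice within each time point and collection time, in 39 comparisons with at least 2 pools per group. The Akt genes differed in few of them. Akt1 was called higher in 3 of the 39 and Akt2 in 2, each at T3 in AM pools, and neither was called lower, where 4.17% of all gene tests were called in either direction.

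In the hindbrain of HEM mice at T3 AM the normalised Akt1 counts were 10007 and 8620 against 6406 and 7323 in NON, and the Akt2 counts 1084 and 1058 against 722 and 567. Akt1 was 0.44 higher on the log2 scale (interval 0.10 to 0.78, adjusted p = 0.0375) and Akt2 0.70 higher (interval 0.26 to 1.20, adjusted p = 0.0339), in a comparison where 25.6% of the target genes were called higher. The median of all 43 was 0.14, and from the highest Akt1 ranked 8 and Akt2 ranked 4. With 2 pools a side, leaving out any 1 of the 4 pools removed the Akt1 call (0.33 to 0.55), and leaving out HEM pool 2/3, HEM pool 12 or NON pool 7 removed that of Akt2 (0.57 to 0.72). NON pool 7 is among the low pools above. On the positive control scale the values were 2.28 and 2.39, neither called. At T3 PM the differences were 0.16 for Akt1 and 0.04 for Akt2, neither called, and 0.10 and -0.09 without the low NON pool 5/6. Among the alternative settings these differences reached 1.68 and 1.28. Averaged over AM and PM, with both low NON pools included, they were 0.30 (adjusted p = 0.0263) and 0.37 (adjusted p = 0.0535).

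In the midbrain of HOM mice at T3 AM Akt1 counts were 12714, 11540, 12235, 12438 and 10614 against 8213, 9355 and 12241 in NON, and Akt2 counts 1402, 1264, 1357, 1362 and 1296 against 1044, 1154 and 1186. The Akt2 groups did not overlap and the Akt1 groups did, through NON pool 7. Akt1 was 0.26 higher (interval 0.09 to 0.47, adjusted p = 0.0333) and Akt2 0.24 higher (interval 0.07 to 0.42, adjusted p = 0.0333), with 25.6% of the target genes called higher. The median of all 43 was 0.12, and from the highest Akt1 ranked 7 and Akt2 ranked 10. Both calls were lost without NON pool 3/4 or 10 or HOM pool 3/4, 6 or 10 (Akt1 0.14 to 0.25, Akt2 0.19 to 0.26), and with the single HOM PM pool averaged in, the values were 0.06 and 0.11.

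In the right cortex of HOM mice at T3 AM Akt1 counts were 11419, 13187, 12554, 13219 and 13314 against 10006, 10900 and 10918, without overlap. Akt1 was 0.26 higher (interval 0.09 to 0.43, adjusted p = 0.0153), with 23.3% of the target genes called higher, and the call was lost without NON pool 10 (0.22, adjusted p = 0.207). Akt2 was 0.26 higher there and missed the threshold (interval 0.02 to 0.48, adjusted p = 0.0807), and passed without HOM pool 10 (0.31, adjusted p = 0.0342). The median of all 43 was 0.24, near the differences of both Akt genes, which ranked 12 (Akt1) and 14 (Akt2) from the highest. With the single HOM PM pool averaged in, the values were 0.10 and 0.15. In the left cortex of HOM mice at T3 AM Akt1 was not called (-0.09, adjusted p = 0.265), but it was called lower with TMM (-0.21) and with the single PM pool averaged in (-0.23, adjusted p = 0.000536), whereas on the positive control scale it was 0.51 and not called. With TMM no Akt difference of the 3 groups called above passed, the values being 0.07 to 0.52.

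The ratio passed in none of 24 comparisons of genotypes after adjustment. The smallest p that any of these exact permutation tests can give, 0.00286, is too large for 1 test to pass by itself over 24, and 4 HEM comparisons at T1 had only 1 or 2 HEM pools and could not go below 0.10. The lowest p-values were those of HEM against NON at T2 in the cortices. Left cortex ratios were 5.10, 6.19, 6.11, 6.38 and 5.64 in HEM against 4.58 to 5.29 (median 4.81) in NON, and right cortex ratios 4.63, 5.04, 4.82, 4.74 and 5.70 against 3.84 to 4.56 (median 4.28), the right cortex groups having no overlap. The log2 differences were 0.27 (exact permutation test, p = 0.00298, the smallest it can give) and 0.24 (p = 0.00595), with an adjusted p of 0.0714 for each. In HOM mice the differences were 0.07 and 0.13, with adjusted p-values of 0.600 and 0.452 (exact permutation tests). Akt2 was the lower member in HEM left cortex, at -0.26 in AM (interval -0.50 to -0.03, adjusted p = 0.290) and -0.22 in PM (interval -0.39 to -0.05, adjusted p = 0.149), and passed when AM and PM were averaged (-0.24, adjusted p = 0.0480).

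On the reference gene scale the change from T1 to T2 or T3 did not differ detectably between HOM and NON mice. No gene was called in the 8 comparisons (0% of 344 tests by edgeR), and the differences of Akt1 were -0.18 to 0.15 (0.22 in the hindbrain at T3 without the low pools) and those of Akt2 -0.14 to 0.22 on the log2 scale. With the positive control probes as the scale, the midbrain differences at T3 were 0.51 for Akt1 and 0.52 for Akt2, and both passed (adjusted p = 0.0188 by edgeR). The difference of Akt1 between T1 and T3 in the left cortex, where the HOM minus NON value was -0.15, had the lowest unadjusted p of the Akt genes (interval -0.28 to -0.01, adjusted p = 0.525 by edgeR). Nor did NON pools collected in the afternoon differ from morning ones in either gene, with 4.65% of the gene tests called and Akt differences of -0.06 to 0.16 (adjusted p-values of 0.254 and above).

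The genes around Akt in the pathway were described beside it, by the same fits. The upstream list held Insr (the insulin receptor), Irs1, Irs2, Pik3ca, Pik3r1 and Pdk1. The probe named Pdk1 carries the accession of pyruvate dehydrogenase kinase, an enzyme of mitochondrial fuel choice, while the study describes it as the phosphoinositide-dependent kinase that phosphorylates Akt, so its place in the list is uncertain. The downstream list held Gsk3a, Gsk3b, Foxo1, mTor and Pde3b, a phosphodiesterase through which insulin lowers cyclic AMP, and Ptp1b, a phosphatase that removes phosphate from the insulin receptor, stood alone as inhibitor.

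Many of these genes were lower in older NON brains, as was much of the panel. Between T1 and T3, the number of the 6 upstream genes that fell was 5 for hindbrain, 4 for midbrain, 3 for left cortex and 6 for right cortex, where 58.1%, 48.8%, 44.2% and 51.2% of all target genes were called lower, so that the left cortex and midbrain counts were near the share of the panel. Of the 5 downstream genes, 4 fell in the hindbrain, midbrain and left cortex and 5 in the right cortex, and Ptp1b fell in all 4 regions, by 0.35 to 0.68 on the log2 scale. The median upstream difference was -0.65, -0.20, -0.41 and -0.58 in the hindbrain, midbrain, left and right cortex, beside -0.54, -0.20, -0.22 and -0.33 for all 43 genes. Only Pik3r1 in the left cortex was called higher, by 0.11 (adjusted p = 0.0327). Pik3ca was among the most reduced members, at -0.82 for hindbrain, -0.83 for left cortex and -0.82 for right cortex, against -0.24 for midbrain. Insr followed at -0.75, -0.63, -0.70 and -0.21 in the same order. The hindbrain values of the pathway genes include the low NON pools of T3 and are not given without them. In the left cortex, then, Akt1 was called higher while the receptor and catalytic PI3 kinase genes above it and Gsk3b (-0.36), mTor (-0.40) and Pde3b (-0.85) below it were called lower.

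Between regions the neighbours of Akt in the pathway did not move as a block. From midbrain to left cortex Gsk3a was 0.60 higher and Ptp1b 0.53 higher, next to the 0.60 of Akt2, while Foxo1 had a log2 difference of -0.87 and Insr, Irs1 and Irs2 differed by 0.01 or less. In the T3 AM comparisons in which Akt was called, the genes called higher were Irs2, Gsk3a, Gsk3b, Foxo1, mTor and Ptp1b in the HEM hindbrain, Insr, Gsk3b, mTor, Pde3b and Ptp1b in the HOM midbrain, and Irs1, Irs2, Pik3ca, Pik3r1, Gsk3b, mTor and Pde3b in the HOM right cortex, beside 25.6%, 25.6% and 23.3% of all target genes. The 2 lists had no gene called lower in these 3 comparisons.

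Over the 36 groups of region, time point and genotype, the mean log2 levels of Akt1 and Akt2 were unrelated (Pearson's r = -0.03). Within a region, over 9 groups, r was 0.88 in the hindbrain and negative in the midbrain (-0.17), left cortex (-0.57) and right cortex (-0.23). The hindbrain value includes the low pools of T3 and was not determined without them. The genes with levels most like those of Akt2 were Gsk3a (r = 0.90), the immediate early gene c-Fos (0.89) and the beta-arrestin Arrb1 (0.86). For Akt1 they were the histone deacetylase Hdac5 (0.53), the receptor activity-modifying protein Ramp1 (0.49) and the appetite-suppressing peptide Cart (0.48), so that Akt1 had no close match on the panel. Groups of one region share dissection and many share mice, all share the reference genes, and the r values describe these groups only.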

How the data were processed

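The authors mixed equal amounts of RNA from mice of the same genotype and collection time, counted them with a custom nCounter CodeSet and deposited raw counts for 43 target genes, 3 reference genes, 6 positive and 8 negative control probes, with no normalization or background correction. Pools were grouped by their labels. Where a label conflicted, as in 5 right cortex HOM pools of T2 whose source field says hemizygous, the title and genotype were followed. The members and lists were chosen with earlier results of these data known.

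Regions were fitted one by one in edgeR 4.0.16 (R 4.3.3) by the quasi-likelihood test, each combination of genotype, time point and AM or PM having its own mean, with the reference gene mean of a pool taken as its library size and a Benjamini-Hochberg adjusted p under 0.05 over 43 genes as the call. Regions were compared in NON pools with the mice as a block, which the labelled mouse numbers give. Deviations of same-numbered pools correlated over 0.1 in 2 of 15 midbrain and hindbrain pairs, 11 of 16 left cortex and midbrain pairs, 9 of 14 left cortex and hindbrain pairs and 15 of 17 cortex pairs. The 95% intervals came from limma 3.58.1 on log2(count + 0.5). Ratios were tested by two-sided permutation (NumPy 2.4.6, SciPy 1.17.1), exact where fewer than 100000 arrangements exist, and adjusted over 4, 20 or 24 comparisons. The tests were checked on simulated data. For the NON left cortex at T3 against T1, 40.5% of 1.25-fold, 67% of 1.5-fold and 85.5% of 2-fold changes were recovered. For HEM against NON left cortex at T2 PM the shares were 35.5%, 62% and 83.5%, so that over the panel 1.25-fold changes were more often missed than found. The changed genes were drawn at random from all 43, genes near background included. The shares for Akt1 and Akt2 themselves were not determined. The 12 HEM pools without collection time entered no contrast over time or genotype. Named genes were Akt1, Akt2, the pathway lists and, for each Akt gene, the 3 most correlated genes. No pair of pools within a group, of 198, had identical counts or agreed within sampling noise. Pools of different mice are the replicates, and the files name no cartridge or run, so such batches were not tested. NanoStringDiff, used by the authors, was not available. Of the planned fits that leave out each reference gene in turn, that without B2m is given, and the others are not reported here.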

Additional observations from a re-analysis of the deposited data

Results flagged for a closer look

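In groups of 4 to 10 pools, 7 of 108 sets of values had an extreme pool separated from the others by more than Dixon's test allows at 95%, and chance alone gives about 1 in 20. Pool 1/2 of the HEM hindbrain at T1 had the highest Akt2 normalised count of its group, 1974 against 1404 to 1498 in the others, and the lowest Akt1 to Akt2 ratio, 5.58. Pool 4/5 (PM) of the NON right cortex at T1 had the lowest Akt2 normalised count, 1593, and the highest ratio, 4.88. The other 3 were pool 3/4 (AM) of the HOM midbrain at T1 with the highest Akt2 normalised count, 1387, pool 7/10 (PM) of the HOM midbrain at T2 with the lowest Akt1 normalised count, 9363, and pool 5 (AM) of the HOM right cortex at T2 with the lowest ratio, 4.18. The pool of the HEM hindbrain has no collection time and entered no comparison of time points or genotypes.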

How the results depend on the processing

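No called ratio changed direction under any alternative. With 20 comparisons of time points, 10 ratios were called, and 6 to 11 when single pools were left out (6 without T1 HOM AM pool 3/4 or 6/7). Under the other alternative settings no ratio call over time was lost. The HOM ratio at T3 against T1 passed under 1 of them in the hindbrain (adjusted p = 0.0476) and in the midbrain (0.0303, permutation tests). The levels depended on the scale. TMM moved the median of all genes by -0.38 to -0.01 between regions and by -0.13 to 0.45 between time points, and the positive control probes by -1.76 to 0.36 between time points, and the cause was not tested. With TMM the signs turned for Akt1 between T1 and T3 in the NON hindbrain (0.093), Akt2 in the NON left cortex (0.062), HOM left cortex (0.071) and NON right cortex (0.024), Akt1 (-0.20) and Akt2 (-0.23) for midbrain against hindbrain, and Akt1 for left cortex against hindbrain (-0.30). With the positive controls they turned for cortical Akt1 at T3 on the left (NON -1.25, HOM -0.93, HEM -0.52) and right (NON -1.40, HOM -0.70, HEM -1.19), HEM Akt2 (-0.56 left, -1.61 right), Akt1 (0.90) and Akt2 (1.02) of HEM against NON at T3 PM in the left cortex, and Akt1 of right against left cortex (0.19). Between regions, calls were also lost or gained for Akt1 midbrain against hindbrain (0.55 with positive controls), Akt1 left cortex against hindbrain (0.78 with positive controls, 0.17 without B2m), Akt1 left cortex against midbrain (-0.10 in all genotypes, and -0.11 to -0.066 with single mouse pools left out, called without T3 NON 8/9) and Akt1 right against left cortex (-0.065 in all genotypes). Without the replicate block, calls were gained for Akt2 midbrain against hindbrain (0.28), Akt1 left cortex against hindbrain (0.17) and the ratio of right against left cortex (-0.093, adjusted p = 0.0416). That ratio difference ranged from -0.12 to -0.070 with single mouse pools left out and from -0.093 to -0.028 under the other alternative settings.

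Of 20 comparisons of time points, Akt1 was called higher in 6 (7 with TMM and 2 with positive controls, which were other comparisons, HOM midbrain at T2 and T3) and lower in 1 (0 with TMM, 7 with positive controls), and Akt2 higher in 0 (2 with TMM) and lower in 7 (2 with TMM, and 7 with positive controls, of which HOM right cortex and both HEM cortices were not among the first 7). Of 39 genotype comparisons, Akt1 was called higher in 3 (0 with TMM, only the 2 groups or adjustment over the region, 1 without B2m, 1 to 4 with single pools left out) and lower in 0 (1 with TMM or AM and PM averaged, 0 to 1 with single pools left out). Akt2 was called higher in 2 (0 with TMM, without B2m, AM and PM averaged or adjustment over the region, 1 with only the 2 groups or only previously diabetic pools, 1 to 2 with single pools left out) and lower in 0 (2 with AM and PM averaged, both from 1 averaged test, left cortex HEM at T2, that stands for AM and for PM). With positive controls the higher calls were 2 for each gene, in HOM midbrain at T3 AM and HEM left cortex at T3 PM. For the difference between genotypes in the change over time, 1 Akt1 and 1 Akt2 call appeared with positive controls, in the midbrain at T3 (0.51 and 0.52). Akt2 counts of 13 to 57 in the 3 low hindbrain pools limit their precision.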
